A study of Saccharomyces cerevisiae with 8 samples.

Results

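The 10 genes described here belong to the phosphate (PHO) regulon of budding yeast, Saccharomyces cerevisiae, and were chosen by name from the 6600 features of the count tables: the phosphatase genes PHO5 (YBR093C) and PHO8 (YDR481C), the transporter genes PHO84 (YML123C) and PHO89 (YBR296C), the regulator genes PHO81 (YGR233C) and SPL2 (YHR136C), and the genes VTC1 (YER072W), VTC2 (YFL004W), VTC3 (YPL019C) and VTC4 (YJL012C) of the vacuolar transporter chaperone complex. All 10 were found, and all 10 passed the filters on low counts. RNA was sequenced from cultures grown for 16 h in YPD, a rich medium with ample phosphate, at which time the cultures were in late log phase. The study asked which transcription programme in this phase precedes the long survival of some histone mutants in stationary phase.

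The 8 libraries came from 5 strains. There were 2 libraries of H4K16Q, in which glutamine replaces lysine 16 of histone H4 and mimics the acetylated residue, 2 of H4H18A, in which alanine replaces histidine 18 of the same tail, and 2 of WT H4, the wild-type strain of that pair of mutants. H3E50A, in which alanine replaces glutamate 50 of histone H3, and WT H3 had 1 library each, so that their difference has no replicate check. All strains derive from JDY86, a MATa strain with leu2Δ0, met15Δ0, trp1Δ63, ura3Δ0, his3Δ200, an allele written as K2Δ0 and can1::MFA1pr-HIS3, in which the genes hht1-hhf1 were replaced by NatMX4 and the genes hht2-hhf2 by a synthetic H3 and H4 cassette linked to URA3. The wild-type strains carry these alleles too, and by this genotype the cassette is the only source of H3 and H4 in each strain. For the H4 mutants the strain field gives H3 in place of H4, and the sample titles, which name the residue, were followed. No member is among the genes deleted in JDY86. LEU2 and TRP1 were at 0 counts in all 8 libraries and MET15 at 0 or 1. The other deleted genes did have counts, between 32 and 4609 for HHT1, 12 and 1286 for HHF1 and 0 and 331 for HIS3. HIS3 is also part of the can1 cassette, and which histone copy the reads on HHT1 and HHF1 came from was not tested.

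When phosphate is scarce, the cyclin-dependent kinase complex Pho80-Pho85 is inhibited by Pho81, the transcription factor Pho4 then stays in the nucleus, and with the homeodomain protein Pho2 it activates the PHO genes. Their products release phosphate from organic compounds, carry it across the plasma membrane and store it as polyphosphate in the vacuole. PHO5 is also a textbook case of regulation by chromatin, because positioned nucleosomes cover its promoter in the repressed state and are removed when Pho4 binds. In phosphate-rich medium the regulon is largely repressed.

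The upstream sequences are shown first because Pho4 binds the palindrome CACGTG, and all 10 members hold it. The 600 bases before the start codon were read from the RefSeq R64 genome. This motif was present in 10 of 10 members, against 431 of 5895 genes (7.31%), and 2 or more copies were present in PHO84, SPL2, VTC3 and VTC4, against 0.882% of all genes. The weaker Pho4 core CACGTT, which differs from the palindrome in its last base and was searched on both strands, was present in 6 of 10 members, against 19.0% of all genes. A match is a description of the sequence, not a measured binding site. The members were chosen as genes of the PHO regulon, which Pho4 activates, so a high share was foreseeable and is no test. Related genes outside the members hold the palindrome too: PHO11, PHO12, PHM6, GIT1, GDE1, PHO86, PHO87, PHO91, SYG1, VIP1 and DDP1. It was absent from the same window of the other related genes named below, among them PHO3, PHM8, PHO88 and PHO90. In the lines that follow, each sequence runs 5′ to 3′ on the strand of the gene, and capitals mark the palindrome.

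PHO5, chrII:431179-431224, minus strand: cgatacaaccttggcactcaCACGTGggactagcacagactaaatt
PHO8, chrIV:1420759-1420804, minus strand: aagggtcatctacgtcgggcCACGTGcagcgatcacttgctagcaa
PHO84, chrXIII:26189-26256, minus strand: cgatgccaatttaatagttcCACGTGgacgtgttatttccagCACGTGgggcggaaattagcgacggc
PHO89, chrII:798820-798865, minus strand: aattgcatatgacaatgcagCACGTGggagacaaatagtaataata
PHO81, chrVII:958529-958574, minus strand: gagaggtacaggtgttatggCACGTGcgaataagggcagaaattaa
SPL2, chrVIII:375436-375481, minus strand: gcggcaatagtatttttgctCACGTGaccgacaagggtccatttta
VTC1, chrV:302629-302674, plus strand: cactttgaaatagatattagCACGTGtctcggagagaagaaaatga
VTC2, chrVI:131479-131524, plus strand: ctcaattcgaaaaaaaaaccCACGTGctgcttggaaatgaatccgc
VTC3, chrXVI:517304-517383, minus strand: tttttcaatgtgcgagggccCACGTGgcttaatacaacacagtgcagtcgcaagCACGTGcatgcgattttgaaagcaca
VTC4, chrX:413487-413544, minus strand: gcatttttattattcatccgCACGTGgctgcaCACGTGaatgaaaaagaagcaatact

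The copies differ in place and spacing. The palindrome of PHO5 began 253 bases before the start codon and that of PHO8 534 bases before it, the farthest of the 10 genes. PHO84 held a pair beginning at 436 and 414 bases. VTC4 held the closest pair, at 125 and 113 bases, and that of VTC3 began at 345 and 311 bases. SPL2 held 4 copies, at 361, 147, 90 and 31 bases, of which only the first is printed above. The genes of each role thus include members with a single copy and, except for the phosphatases, members with more.

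**Figure D1:**
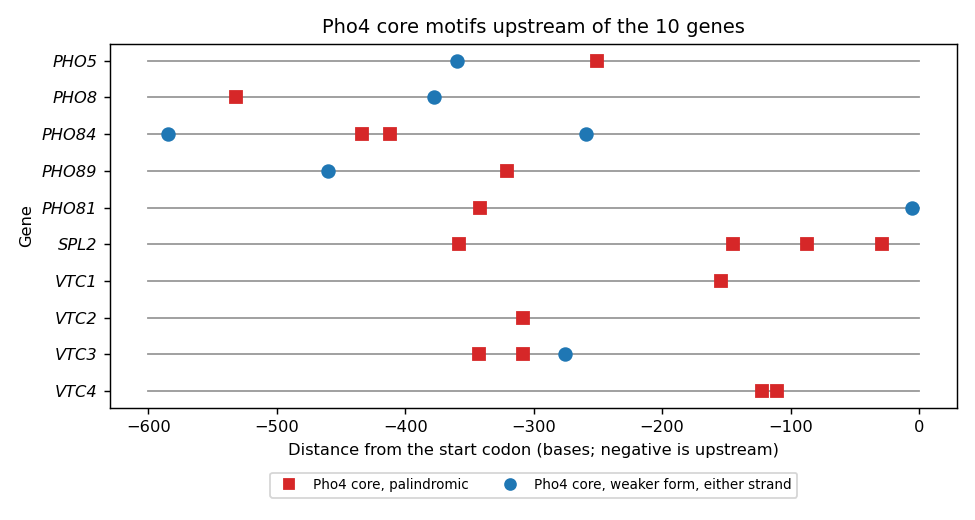
Position of Pho4 core motifs in the 600 bases upstream of each of the 10 genes. The x axis is the distance from the start codon in bases, squares mark the palindromic core and circles the weaker core on either strand; SPL2 carries 4 palindromes, PHO84, VTC3 and VTC4 a pair each, and the others 1.

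Each of the 10 genes is a single exon in the R64 annotation. PHO84 (chrXIII:24037-25800, minus strand) lies 24.0 kb from a chromosome end and PHO89 (chrII:796798-798522, minus strand) 14.7 kb, the nearest of the members, while the other 8 lie between 112 and 431 kb from an end. An antisense RNA gene, YNCM0001W, runs over PHO84 on the opposite strand. The strand setting of the counting is not given in the sources used here, so reads from PHO84 and from this RNA cannot be told apart. The coding sequence of PHO5 shares 86.5% of its aligned positions with its neighbour PHO3, and the counts of both are uncertain to the extent that reads fall on shared stretches.

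Levels are given in CPM, counts scaled to a common library size by TMM over the 8 libraries, and per kilobase (kb) of coding length where genes are compared with each other. The libraries held between 621770 and 10529401 counts, of which 10 ribosomal RNA features took between 0.180% and 33.9% and the single feature YGL088W between 0.372% and 22.9%. The limit set by a count of 0, which is 3 counts, lay between 0.217 CPM and 7.06 CPM, the latter in H4H18A replicate 1. Low counts were mostly even: among features with 1 to 20 counts, between 57.6% and 83.9% per library had an even count, as would arise if both reads of a pair were counted. The intervals below were therefore computed on counts divided by 2, and they cover counting error only. For the sum of 10 late growth phase genes (HSP12, SIP18, JEN1 and others that rise as glucose runs out), WT H4 replicate 1 had 30047 CPM and replicate 2 had 1233 CPM. The sums were 28001 and 9788 CPM for H4K16Q, 35054 and 1646 CPM for H4H18A, 2670 CPM for WT H3 and 80717 CPM for H3E50A. The replicates of each H4 strain thus differed in these genes by more than the means of the 3 H4 strains did, and these values are set beside some of the results below. In the MATa check, the summed a-specific genes stood between 422 and 1066 CPM in the WT and H3E50A libraries and between 30.0 and 119 CPM in the 4 H4 mutant libraries. In bulk RNA, fewer cells that express a gene and less of its RNA per cell cannot be told apart.

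Per kb of coding length, VTC1, PHO84 and PHO8 had the highest levels. VTC1, the small membrane subunit of the complex, had a mean of 123 ± 52.9 CPM per kb in WT H4 (SD, n = 2), of 161 ± 21.9 in H4K16Q and of 170.3 ± 104 in H4H18A. PHO84 had 90.0 ± 109 CPM per kb in WT H4, 166 ± 16.9 in H4K16Q and 169.9 ± 70.5 in H4H18A. PHO8 had 89.0 ± 4.89, 131 ± 9.14 and 123 ± 9.84 CPM per kb in these strains. The order of these top 3 differed between strains and lay within the spread of VTC1 and PHO84. VTC2 and VTC4 followed, between 52.2 and 73.1 CPM per kb in the means of the 3 strains, and their order also changed between strains. VTC3 was lower, with means between 29.6 and 34.4 CPM per kb. PHO5, PHO81, PHO89 and SPL2 made up the low end in these strains, with means between 3.36 and 27.1 CPM per kb. In H3E50A the order was different at both ends: PHO84 led with 480 CPM per kb, before VTC1 with 281, and PHO89, at rank 8 to 10 in the means of the H4 strains, came at rank 5 with 88.0, while PHO5 was lowest with 32.7.

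**Figure D2:**
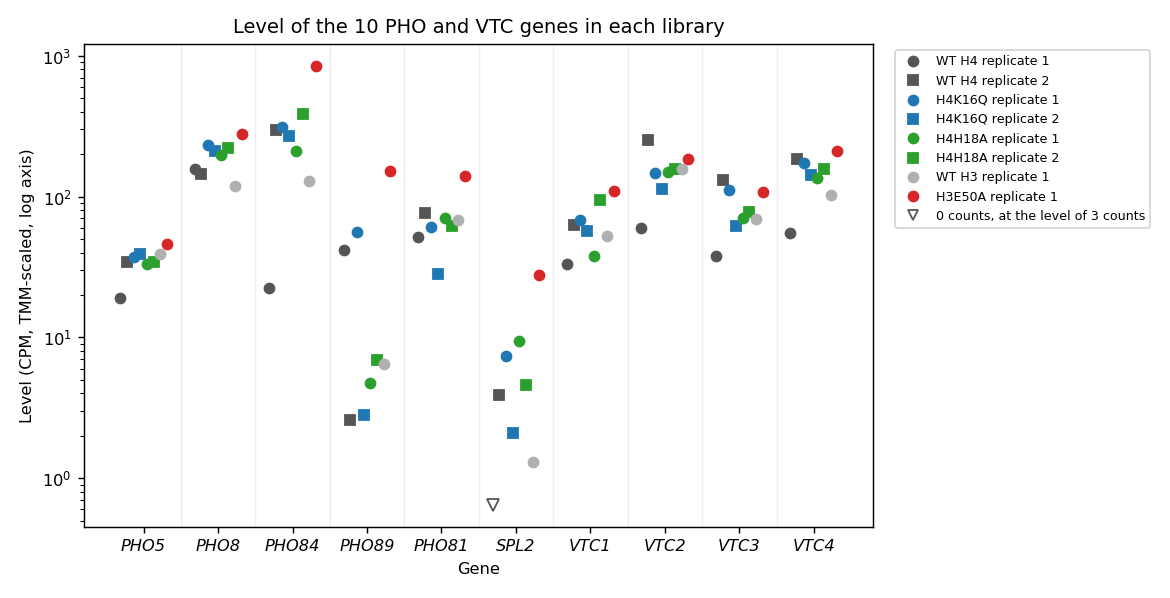
Level of each of the 10 genes (x axis) in each of the 8 libraries (y axis, CPM on a log axis). Colours mark strains and shapes replicates, and the open triangle marks SPL2 at 0 counts in WT H4 replicate 1, drawn at the level of 3 counts; H3E50A is the highest point for 8 genes and WT H4 replicate 1 the lowest for 7.

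The phosphatase genes varied least. PHO5, which encodes the secreted, repressible acid phosphatase, had 19.0 and 34.4 CPM in WT H4, 37.4 and 38.8 in H4K16Q, 32.9 and 34.4 in H4H18A, 39.1 in WT H3 and 45.9 in H3E50A. Both H4K16Q libraries were above both WT H4 libraries, but not above WT H3. PHO8, which encodes the alkaline phosphatase of the vacuole, had 157 and 146 CPM in WT H4, 234 and 212 in H4K16Q, 198 and 221 in H4H18A, 119.8 in WT H3 and 279 in H3E50A. All 5 mutant libraries of PHO8 were above all 3 WT libraries, an order seen in 1.01% of 5962 genes and in no other member. The log2 range of PHO8 over the libraries, 1.22, was narrow, at the 12.7th percentile of all genes.

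The transporter genes varied most widely, together with SPL2. PHO84 encodes the high-affinity phosphate and proton symporter that carries most phosphate into starved cells. Its levels were 22.4 and 295 CPM in WT H4, 313 and 271 in H4K16Q, 212 and 388 in H4H18A, 129.6 in WT H3 and 847 in H3E50A. The pair of WT H4 libraries thus spanned a wider range than the 4 H4 mutant libraries. PHO89 encodes a cotransporter of phosphate and sodium that works at alkaline pH. Its levels were 41.6 and 2.60 CPM in WT H4, 55.7 and 2.83 in H4K16Q, 4.71 and 6.88 in H4H18A, 6.51 in WT H3 and 152 in H3E50A. Of these libraries, 3 were high, 1 each of WT H4, H4K16Q and H3E50A, and the other 5 held between 2 and 19 counts of PHO89. Those 3 were also 3 of the 4 libraries with the highest sum of late growth phase genes. The remaining library of these 4, H4H18A replicate 1, had 4.71 CPM of PHO89 from 2 counts, with a counting interval of 0.119 to 26.2 CPM. The part of growth phase in the level of PHO89 was not tested.

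Of the regulators, PHO81 had 51.3 and 76.7 CPM in WT H4, 60.6 and 28.1 in H4K16Q, 70.6 and 61.9 in H4H18A, 67.7 in WT H3 and 139.6 in H3E50A. Its H4K16Q and WT H4 libraries overlapped. SPL2 encodes a small protein, itself a PHO target, that lowers low-affinity phosphate uptake through the transporter Pho87. It had 0 and 3.90 CPM in WT H4, 7.38 and 2.08 in H4K16Q, 9.41 and 4.59 in H4H18A, 1.30 in WT H3 and 27.7 in H3E50A. Outside H4K16Q replicate 1 and H3E50A, these levels rested on 0 to 14 counts. The log2 ranges of SPL2, PHO89 and PHO84 over the 8 libraries were 5.90, 5.63 and 5.21, at the 97.1th, 96.1th and 93.9th percentiles of all genes, whereas the median range was 2.01 over the members and 2.18 over all genes.

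The VTC complex makes polyphosphate from ATP and moves it into the vacuole. VTC4, the catalytic subunit, had 54.8 and 185 CPM in WT H4, 174 and 142 in H4K16Q, 136 and 156 in H4H18A, 102 in WT H3 and 212 in H3E50A. VTC1 had 33.2 and 62.4 CPM in WT H4, 68.7 and 56.7 in H4K16Q, 37.7 and 95.2 in H4H18A, 52.1 in WT H3 and 109.6 in H3E50A. In both genes WT H4 replicate 1 was lowest and H3E50A highest, and the H4 strains overlapped. VTC2 and VTC3 are paralogous subunits, each forming its own version of the complex with Vtc1 and Vtc4. VTC2 had 59.7 and 253 CPM in WT H4, 147 and 113 in H4K16Q, 151 and 156 in H4H18A, 158 in WT H3 and 186 in H3E50A. VTC3 had 38.2 and 131 CPM in WT H4, 111 and 61.7 in H4K16Q, 70.6 and 78.0 in H4H18A, 69.7 in WT H3 and 107 in H3E50A. Both were highest in WT H4 replicate 2 and lowest in WT H4 replicate 1. The level of VTC2 per kb exceeded that of VTC3 in all 8 libraries, from 1.34-fold in H4K16Q replicate 1 (95% exact interval 1.22 to 1.47) to 2.29-fold in WT H3 (1.64 to 3.20). H3E50A lay within that range, at 1.75-fold (1.49 to 2.07).

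In H4K16Q and H4H18A no member passed the test. The question was whether a substitution in the Sir3-binding tail of H4 changes the PHO genes in late log phase. By the quasi-likelihood test of edgeR, with p-values adjusted after Benjamini and Hochberg, 0 of 10 members and 0 of 5669 genes (0% called) were past an adjusted p of 0.05 in H4K16Q against WT H4, in H4H18A against WT H4 or in H4K16Q against H4H18A, and the smallest adjusted p of any gene was 0.997, 0.999 and 0.999996. At an unadjusted p of 0.05 no member passed either, while 211 (3.72%), 126 (2.22%) and 88 (1.55%) of all genes did. DESeq2's Wald test called 15, 0 and 6 genes, none of them a member. These tests do not show that the members were alike in the strains, since the standard errors were wide. The paper, which also used edgeR, did report sets of induced and repressed genes at an adjusted p below 0.05 in both H4 mutants. The authors' deposited edgeR tables compare 1 mutant with 1 WT library, a design unlike the fit used here.

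In H4K16Q the fitted log2 fold change was above 0 for 8 of 10 members, against 44.4% of all genes, and its median was 0.40 over the members and -0.10 over all genes. SPL2 had the highest value, 1.55 ± 1.66 (standard error; 2 libraries in each strain), before PHO84 with 0.88 ± 1.07, and PHO81 had the lowest, -0.53 ± 0.60. PHO5 with 0.52 ± 0.57 and PHO8 with 0.55 ± 0.67 were the only members for which both mutant libraries were above both WT H4 libraries, an order found in 12.6% of all genes, and no member showed the opposite order, found in 18.3%. The VTC genes had values from -0.27 ± 0.77 for VTC2 to 0.40 ± 0.73 for VTC4. The median of the members was -0.01 when the fit left out WT H4 replicate 1 and 1.21 when it left out the other WT H4 library, so that the control library set whether the median lay near 0.

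In H4H18A 7 of 10 members had a fitted log2 fold change above 0, again against 44.4% of all genes, with a median of 0.32 over the members and -0.09 over all genes. SPL2 had 2.05 ± 1.83 and PHO84 0.93 ± 1.07, while PHO89 had the lowest value, -1.93 ± 1.53. Both mutant libraries were above both WT H4 libraries for PHO8, with 0.47 ± 0.67, and for SPL2, against 10.3% of all genes, and for no member were both below, against 15.7%. For SPL2 this order rested on 4 counts in each H4H18A library and on 0 and 6 counts in WT H4. The counting intervals of H4H18A replicate 2 (0.556 to 16.6 CPM) and WT H4 replicate 2 (0.804 to 11.4 CPM) overlap. Leaving out WT H4 replicate 1 gave a median of 0.01, and leaving out the other WT H4 library 1.01. Scaled by total counts only, the median was -0.19 over the members and -0.56 over all genes, and PHO5, PHO81 and VTC4 turned below 0. Both H4 comparisons use the same WT H4 libraries, and their values are given side by side for that reason.

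Set against each other, the H4 mutants had a median log2 difference of 0.01 over the members and 0.07 over all genes, with 5 of 10 members above 0 against 55% of all genes. PHO89 had the largest difference, 2.28 ± 1.53 higher in H4K16Q, from libraries of 55.7 and 2.83 CPM against 4.71 and 6.88 CPM, which overlap. The libraries did not overlap for PHO5, higher in H4K16Q with 0.17 ± 0.58 (14.6% of all genes had this order), nor for PHO81 and VTC2, lower in H4K16Q with -0.59 ± 0.61 and -0.25 ± 0.77 (11.4% of all genes).

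**Figure D3:**
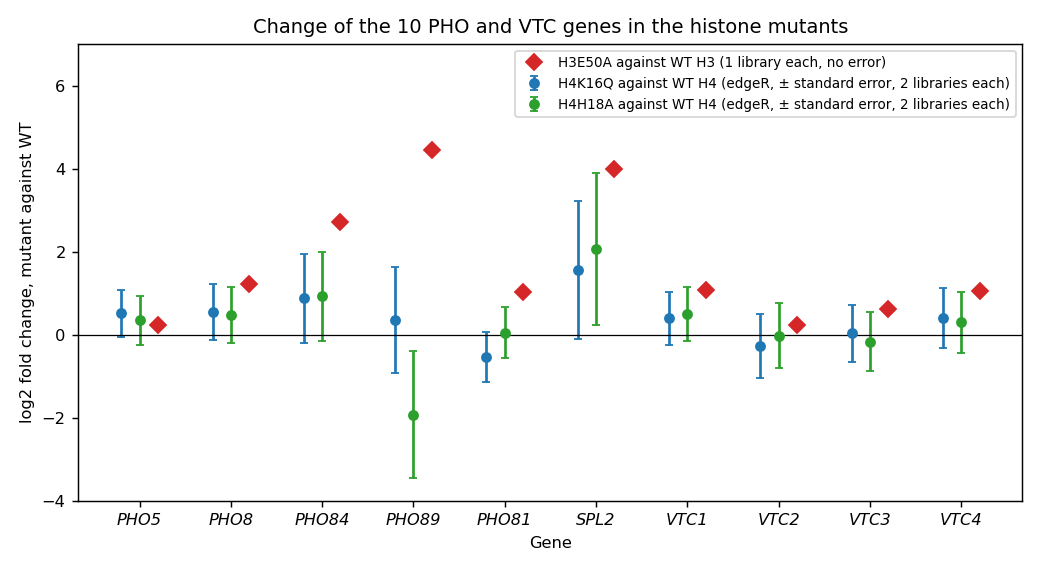
The log2 fold change of each of the 10 genes (x axis) in the 3 histone mutants. Circles are edgeR values against WT H4 with bars of 1 standard error (2 libraries per strain), diamonds are the log2 ratio of the H3E50A library to the WT H3 library, with no replicates and no bar; all 10 diamonds are above 0, up to 4.45 for PHO89.

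The H3E50A library had more of every member than the WT H3 library. All 10 log2 ratios were above 0, against 49.3% of 5962 genes. There were 7 members with a log2 ratio above 1, against 22.1% of all genes, 3 with a ratio above 2 (PHO84, PHO89 and SPL2), against 8.52%, and none below -1, against 23.2%. The median log2 ratio was 1.06 over the members and 0 over all genes. With 1 library for each strain these values compare 2 libraries and have no test of the strains. The 2 libraries also differed in make-up: ribosomal RNA features took 1.88% of the 4256296 counts in H3E50A and 33.9% of the 1561683 counts in WT H3.

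The transporters and SPL2 differed most. PHO84 was 6.54-fold higher in H3E50A (95% exact interval 5.32 to 8.04, from 3695 counts against 199). PHO89 was 23.3-fold higher (9.89 to 72.3, from 662 counts against 10). SPL2 was 21.3-fold higher, with 121 counts against 2 and so an interval of 3.71 to 862. These 3 were also the members that stood more than 1 on the log2 scale above the next highest of the 8 libraries, as did 2.52% of all genes, by 1.13, 1.44 and 1.51 in turn. Between 2.06-fold and 2.33-fold were PHO8 with 2.33 (1.87 to 2.93), VTC1 with 2.10 (1.50 to 3.02), VTC4 with 2.07 (1.62 to 2.65) and PHO81 with 2.06 (1.53 to 2.83). VTC3 was 1.54-fold higher (1.13 to 2.09). The intervals of VTC2 at 1.18-fold (0.957 to 1.45) and of PHO5 at 1.17-fold (0.774 to 1.83) include 1.

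Against the WT libraries as a whole, H3E50A was above all 3 for 8 of 10 members, as for 28.7% of all genes, and it was the highest of all 8 libraries for the same 8, against 21.1%. VTC2 and VTC3 were the exceptions, since WT H4 replicate 2 had more of both. With WT H4 replicate 2 as the only control, 3 members had a log2 ratio above 1 in place of 7, and VTC2 and VTC3 turned to -0.44 and -0.28. With WT H4 replicate 1 as the only control the median of the members was 1.67. Without the ribosomal RNA features and YGL088W, 4 members were above 1. The late growth phase genes moved with H3E50A far more than the members did: 8 of 10 had a log2 ratio above 1, with a median of 5.82. The sum of 132 ribosomal protein genes stood at 12254 CPM in H3E50A and 46110 CPM in WT H3. WT H4 replicate 1, with 30047 CPM of growth phase genes and 7013 CPM of ribosomal protein genes, had the lowest level of 7 members, PHO84 at 22.4 CPM among them, against 20.7% of all genes. The part of growth phase in the H3E50A values was not tested.

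The genes that signal to Pho4 showed no common direction. In H3E50A, of 8 such genes 2 had a log2 ratio above 1, against 22.1% of all genes, and 1 below -1, against 23.2%. PHO4 itself was at 1.04-fold (0.793 to 1.36), and the highest was the kinase gene PHO85 at 2.90-fold (2.26 to 3.76). VIP1, an inositol pyrophosphate synthase, was at 2.05-fold (1.66 to 2.55). PHO92, whose product promotes decay of PHO4 RNA, was lowest, with 2 counts against 7. In the H4 mutants 0 of 8 passed the test in either direction. The log2 fold change was above 0 for 2 of 8 in H4K16Q, with a median of -0.70, and for 3 of 8 in H4H18A, with a median of -0.43, against 44.4% of all genes in each. VIP1 had the highest log2 fold change in both, 0.75 ± 0.63 in H4K16Q and 0.41 ± 0.63 in H4H18A, and PHO92 the lowest, -3.81 ± 1.27 and -1.77 ± 1.36. PHO92 was at 17.9 and 3.90 CPM in WT H4 and at 0.434 and 1.19 CPM in H4K16Q, and its adjusted p in H4K16Q (edgeR) was 0.997, the unadjusted p being 0.0141.

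Of the 7 other phosphatase and scavenging genes, 4 had a log2 ratio above 1 in H3E50A, against 22.1% of all genes, and 1 below -1, against 23.2%. The highest was PHM8, a phosphatase gene of phosphate starvation, at 20.6-fold (10.4 to 48.1). PHM8 had 214.8 CPM in H3E50A, 10.4 in WT H3, 94.8 and 3.90 in WT H4, 56.3 and 21.0 in H4K16Q, and 47.1 and 9.17 in H4H18A. Its levels were highest in H3E50A and in replicate 1 of each H4 strain, the libraries with the highest sums of growth phase genes. PHO89 was high in these libraries too, except in H4H18A replicate 1, where it had 4.71 CPM from 2 counts. The lowest was PHO3, the constitutive acid phosphatase gene next to PHO5, at 0.233-fold (0.171 to 0.313). The level of PHO5 relative to PHO3 was accordingly 1.33 in H3E50A (0.979 to 1.82) and between 0.143 and 0.624 in the other 7 libraries, of which WT H4 replicate 1, at 0.624, had an interval of 0.416 to 0.915. In the H4 mutants 0 of 7 passed. In H4K16Q the extremes were PHO12 with 1.84 ± 1.34 and the glycerophosphoinositol transporter gene GIT1 with -1.12 ± 1.31. In H4H18A they were PHM6 with 0.40 ± 1.21 and PHO11 with -2.37 ± 1.53. PHO11 and PHO12 share 99.7% of their coding sequence, so counts of either are uncertain.

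Among the 6 other phosphate transport genes, 1 was above 1 and 1 below -1 in H3E50A, against the same 22.1% and 23.2%. These were the low-affinity transporter genes PHO87 at 2.84-fold (2.11 to 3.90) and PHO90 at 0.324-fold (0.246 to 0.427). The high-affinity gene PHO84 had 26.4 times the level of PHO90 per kb in H3E50A (21.7 to 32.5), while in the other 7 libraries this ratio ran from 0.667 in WT H4 replicate 1 (0.471 to 0.932) to 4.69 in H4H18A replicate 2 (3.44 to 6.50). The WT H3 library stood at 1.31 (0.996 to 1.74). In the H4 mutants 0 of 6 passed, and all 6 had a log2 fold change above 0 in both with TMM scaling, against 44.4% of all genes. PHO88 was highest in H4K16Q with 1.84 ± 0.85, and PHO86 lowest with 0.21 ± 0.69. In H4H18A the highest was the vacuolar transporter gene PHO91 with 0.77 ± 0.68 and the lowest PHO87 with 0.13 ± 0.58.

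None of the 4 other polyphosphate genes had a log2 ratio above 0 in H3E50A, against 49.3% of all genes, and 3 had intervals below 1. VTC5, an accessory subunit that stimulates the VTC complex, was at 0.329-fold (0.192 to 0.565), the endopolyphosphatase gene PPN2 at 0.395-fold (0.295 to 0.524) and the exopolyphosphatase gene PPX1 at 0.197-fold (0.129 to 0.297). PPN1, the other endopolyphosphatase gene, was at 0.974-fold (0.806 to 1.18). Thus 3 of 4 had a log2 ratio below -1, against 23.2% of all genes, where VTC1 and VTC4 were above 1. In the H4 mutants 0 of 4 passed. PPX1 was lowest in both, with -1.44 ± 0.90 in H4K16Q and -0.62 ± 0.91 in H4H18A, and PPN2 was highest, with -0.26 ± 0.78 and 0.59 ± 0.79.

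Over the 8 libraries, which share strains and differ in depth, the members followed each other to unequal degrees. As a description, Pearson's r of log2 CPM was 0.97 for PHO84 and VTC4, 0.91 for VTC2 and VTC3 and 0.90 for PHO84 and SPL2. PHO89 stood apart, with r from -0.23 with VTC2 to 0.51 with PHO81, and PHO8 and PHO81 followed the rest loosely: apart from PHO89, r ran from 0.08 with VTC2 to 0.69 with SPL2 for PHO8 and from 0.19 with PHO8 to 0.62 with SPL2 for PHO81. PHO5 had 0.89 with PHO84 and 0.38 with PHO8. For PHO89 the r with the 10 growth phase genes had a median of 0.72 and ran from -0.46 to 0.80. The medians of the other 9 members lay between -0.35 for VTC2 and 0.51 for PHO8. Among the 5068 genes outside the members that averaged 10 CPM or more, those most like PHO84 were MDM38 (r = 0.98), YLR326W (0.97), SBH2 (0.96), DIB1 (0.96) and PRE10 (0.95). Those most like VTC3 were RPC82 (0.95), NMA111 (0.94), YBT1 (0.93), RFA3 (0.93) and RPB3 (0.92). The member VTC4, at r = 0.97 with PHO84, would stand after MDM38 in that order. With 8 points that include 1 low library the likeness is only a ranking.

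**Figure D4:**
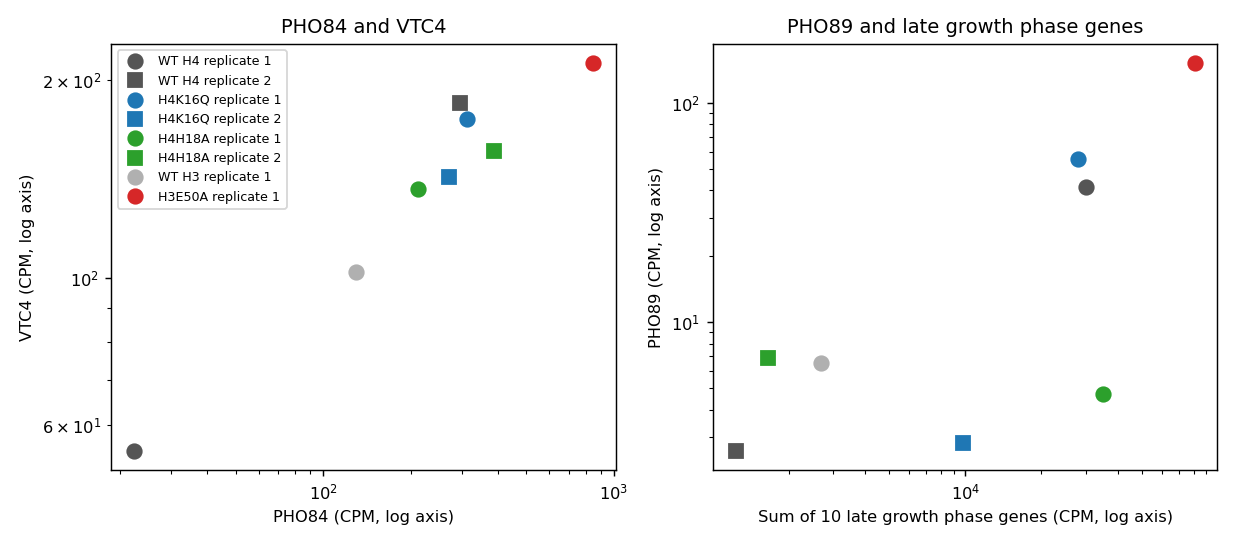
Left, VTC4 against PHO84 (CPM, log axes); right, PHO89 against the sum of 10 late growth phase genes (CPM, log axes), 1 point for each of the 8 libraries, colours for strains and shapes for replicates. On the left WT H4 replicate 1 (22.4 and 54.8 CPM) and H3E50A (847 and 212 CPM) are the ends of the series; on the right H4H18A replicate 1 has a high sum (35054 CPM) and a low PHO89 (4.71 CPM).

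Replicates of 1 strain differed in the members to unequal degrees. The median absolute log2 difference between the replicates was 1.75 for the members and 1.04 for all genes in WT H4, 0.33 and 0.61 in H4K16Q, and 0.19 and 0.81 in H4H18A. The members thus differed more than the usual gene between the WT H4 libraries and less than the usual gene within each H4 mutant. Within H4K16Q the replicates differed most in PHO89, at 55.7 and 2.83 CPM.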

How the data were processed

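The authors extracted total RNA from independently prepared cultures, made TruSeq stranded libraries, sequenced paired reads on a HiSeq instrument, trimmed them with Trim Galore, used RNA STAR for mapping to R64 and obtained gene counts from featureCounts (versions and strand setting not given in the sources used here). The deposited counts are whole numbers per gene without normalization. Deposited edgeR tables hold the authors' own comparisons of 1 mutant with 1 WT library and were not used. Of the 6600 features, 5917 had a RefSeq R64 locus tag.

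The 6 H4 libraries were fitted together with edgeR 4.0.16 in R 4.3.3 (1 group per strain, minimum count 10, minimum total count 15, TMM, quasi-likelihood test, Benjamini-Hochberg adjustment over 5669 genes), and the standard error is the log2 fold change divided by the root of F. H3E50A and WT H3 were compared as log2 CPM with a prior count of 2 over the 5962 genes that passed the filter on all 8 libraries, with exact binomial (Clopper-Pearson) 95% intervals of the untransformed ratio. Motifs were searched in R64 itself, since no promoter table was given. The test was tested on simulated counts, of whose changed genes it called few at the spread of these libraries, and DESeq2 1.42.0 was an alternative. Named outside the members are, in each list and mutant, the highest and lowest gene, the 5 genes most like PHO84 and VTC3, deleted genes, and PHO4 and VTC5, which were added after their values were seen (as was VIP1 in H3E50A). The 10 members and the lists were chosen with earlier results of these data known. P-values weigh a difference between strains against the spread between these libraries, estimated from 2 libraries per strain.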

Additional observations from a re-analysis of the deposited data

Results flagged for a closer look

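In PHO89 and PHO81 every library of an H4 mutant moved against its WT mean in one direction and the H3E50A library in the other, and neither difference was tested. For PHO89 the mean log2 change was -0.88 in H4H18A and 4.45 in H3E50A, a difference of -5.33, from 2 and 6 counts in the H4H18A libraries. The WT H4 libraries had 41.6 and 2.60 CPM of PHO89, both H4H18A libraries (4.71 and 6.88 CPM) lay between them, and the fitted change in H4H18A was 1.21 when WT H4 replicate 1 was left out. For PHO81 the mean log2 change was -0.60 in H4K16Q and 1.04 in H3E50A, a difference of -1.64. The H4K16Q libraries had 60.6 and 28.1 CPM of PHO81, and the first of these lay between the WT H4 libraries (51.3 and 76.7 CPM). Leaving out 1 library in turn, the fitted change of PHO81 in H4K16Q ran from -1.01 to -0.077. H3E50A is 1 library, and the controls differ between the mutants.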

How the results depend on the processing

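No member passed the threshold under any of the alternatives run for the 3 H4 comparisons, and the lowest adjusted p of a member was 0.0758, 0.125 and 0.999 in H4K16Q, H4H18A and H4K16Q against H4H18A. Counts of genes called were 15 and 6 with DESeq2 in H4K16Q against WT H4 and against H4H18A. Leaving out 1 library gave 0 to 58 called genes in H4K16Q, 0 to 13 in H4H18A and 0 in H4K16Q against H4H18A, the highest without WT H4 replicate 2, and member medians of -0.012 to 1.21, 0.0098 to 1.01 and -0.11 to 0.31. In H3E50A, 4 members were above 1 without ribosomal RNA features and YGL088W and 3 with WT H4 replicate 2 as control, and the median was 1.67 with WT H4 replicate 1 as control (both controls chosen after seeing the data). Whether the replicate numbers pair the samples cannot be told from the labels, which name no batch. Same-numbered deviations correlated at 0.13 for H4K16Q and WT H4, 0.44 for H4H18A and WT H4 and -0.01 for the H4 mutants. The growth phase sum was higher in replicate 1 than in replicate 2 of each H4 strain. The fit with the replicate block called 0 genes in each comparison and gave member medians of 0.53, 0.40 and 0.11. With the block PHO84 in H4K16Q was at 1.60, and PHO89 was at -0.54 in H4H18A and at 0.79 in H4K16Q against H4H18A.

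Single members changed sign as follows, without any call; the cause was not tested. Leaving out 1 library in turn, the log2 fold change in H4K16Q ran from -2.82 to 3.48 for PHO89, -0.61 to 1.31 for VTC3, -0.024 to 3.84 for PHO84, -0.0011 to 1.06 for VTC1, -0.23 to 1.67 for VTC4 and -0.97 to 1.26 for VTC2. In H4H18A it ran from -0.20 to 0.39 for PHO81, -0.27 to 1.04 for VTC1, -0.71 to 1.38 for VTC2, -0.017 to 0.85 for PHO5, -2.77 to 1.21 for PHO89, -0.32 to 1.44 for VTC4 and -0.80 to 0.99 for VTC3. In H4K16Q against H4H18A it ran from -0.90 to 0.11 for SPL2, -0.41 to 0.56 for PHO84, -0.60 to 0.83 for VTC1, -0.93 to 3.20 for PHO89 and -0.15 to 0.56 for VTC3. VTC2 in H4H18A was at 0.031 with RLE size factors, 0.040 without ribosomal RNA features and YGL088W, 0.15 with the replicate block and 0.032 with DESeq2. Total-count scaling gave -0.11 for VTC3 in H4K16Q, -0.15, -0.46 and -0.23 for PHO5, PHO81 and VTC4 in H4H18A, and 0.20, 0.038, 0.12 and 0.095 for PHO84, SPL2, VTC1 and VTC2 in H4K16Q against H4H18A. In that last comparison PHO84 was at 0.048 without ribosomal RNA features and YGL088W, and the replicate block gave 0.20 for PHO84 and 0.053 for VTC1. With WT H4 replicate 2 as control, VTC2 and VTC3 were at -0.44 and -0.28 in H3E50A. Depth limits PHO89 and SPL2 most, at 2 to 6 counts in the H4H18A libraries.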
